A study of Mus musculus with 48 samples.

Results

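Tumours of mice that all later responded to checkpoint antibodies were split here by how much mRNA of the chemokine Cxcl9 they held before treatment. Renca is a mouse kidney cancer line, and its tumours were grown under the skin of female BALB/c mice aged 8 to 9 weeks and removed whole on day 10. The agents given afterwards were antibodies against CTLA4 and PD-L1, so every value below precedes them. Of the 48 libraries of the series, 12 are Renca responders, each from a separate mouse. For each one the Cxcl9 count was divided by the library total to give CPM, the depth-scaled count. The 6 libraries of highest value are called Cxcl9-high (replicates 5, 6, 7, 8, 11 and 12) and the 6 of lowest value Cxcl9-low (replicates 1, 2, 3, 4, 9 and 10). Cxcl9 ran from 184 to 654 CPM, and the split fell between replicate 7 at 349 CPM, just inside the high set, and replicate 10 at 306 CPM, just outside it. The sets were chosen by those values, and Cxcl9 is left out of all that follows. The 12 Renca non-responders, other mice of the same host, tumour, day and antibodies, were split by the same rule and serve as separate libraries in which to read the same genes. Implanted whole tumours hold cancer cells and host cells together, and in such bulk RNA fewer cells of a type and less RNA per cell cannot be told apart.

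Cxcl9, Cxcl10 and Cxcl11 are chemokines that cells make when interferon gamma, the type II interferon of T cells and NK cells, reaches them. Cells that meet the cytokine induce the transcription factor IRF1, guanylate-binding proteins, immunity-related GTPases, antigen presentation genes and the chemokines themselves. The chemokines bind the receptor CXCR3 on activated T cells and NK cells, which are a source of interferon gamma in tumours. Since the sets were made by the level of Cxcl9, each test below asks whether another gene's level went with that of Cxcl9 across these 12 mice.

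The libraries held 16.4 to 23 M counts (M for mega). No difference between Cxcl9-high and Cxcl9-low libraries passed in depth, genes detected, share of the 10 most abundant genes or RNA 260/280 ratio (two-sided exact permutation p from 0.424 to 0.565). The RNA 260/230 ratio was 1.92 ± 0.164 in the high and 2.05 ± 0.101 in the low set (SD, n = 6 each, exact permutation p = 0.119, adjusted p = 0.565 over the 5 measures). Of the 6 Cxcl9-high libraries, 2 were run on the first flow cell and 4 on the second, and of the Cxcl9-low ones 4 and 2, so flow cell was a term of the model. Pax2 and Pax8, transcription factors of the kidney lineage, were read in all 12 libraries, at 14.4 to 19.9 and 37.6 to 56.9 CPM. The renal tubule list had a median log2 difference of -0.11 over 10 tested genes, of which 2 had a positive difference. None of them passed, where 3.88% of all genes tested did, so a list of this size can hold 0 calls without differing. Its summed level was 417 to 567 CPM in Cxcl9-low and 361 to 485 CPM in Cxcl9-high tumours.

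In Cxcl9-high tumours, 344 genes were higher and 255 lower than in Cxcl9-low tumours (edgeR quasi-likelihood test, Benjamini-Hochberg adjusted p under 0.05). These were 2.23% and 1.65% of the 15449 genes tested, 3.88% together. The higher genes had a median log2 difference of 0.379, from 0.129 to 1.3, and 9 of them reached 1, a doubling on this scale. The lower genes had a median of -0.249. Every Cxcl9-high library exceeded every Cxcl9-low library in 153 of the 344, and 46 of the 255 lay wholly below, where 1.2% and 0.777% of all tested genes did so. The plot of all genes shows the type II interferon list among the higher genes of smallest p.

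**Figure D1:**
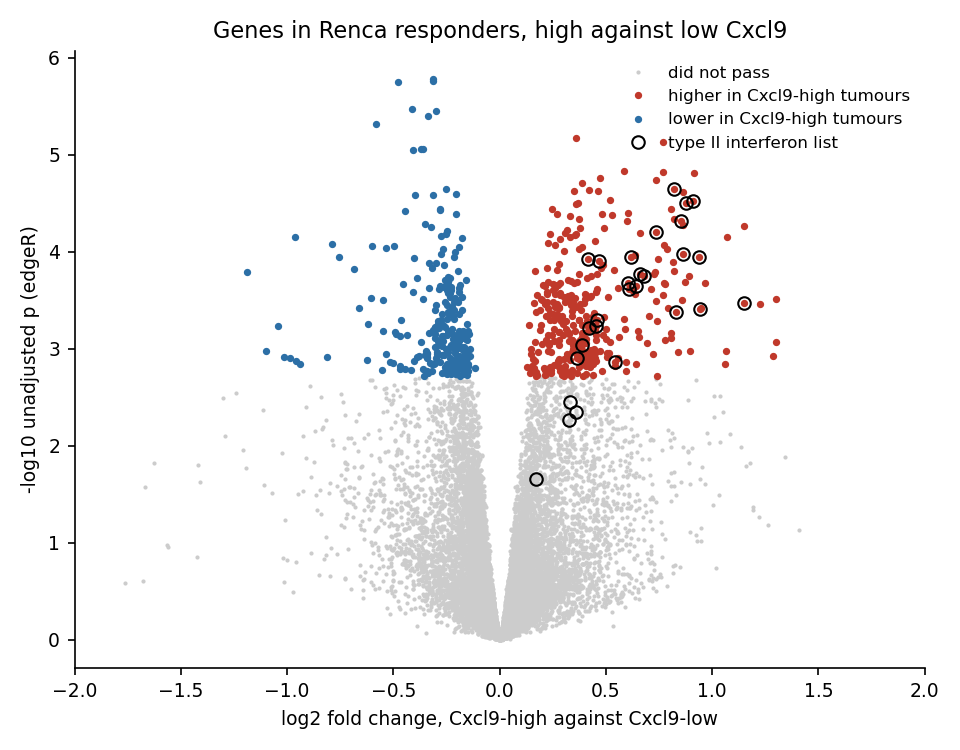
Each point is a gene of the Renca responders, with the log2 fold change of Cxcl9-high against Cxcl9-low tumours on the x axis and the negative log10 of the unadjusted edgeR p on the y axis. Red points passed as higher, blue points as lower, and circles mark the 28 genes tested of the list for type II interferon, all of them to the right of 0. The x axis is limited to values from -2 to 2.

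The number of calls depended on single libraries. Without replicate 6, a Cxcl9-high tumour, 0 genes were called higher and 6 lower, and without replicate 9, a Cxcl9-low tumour, 0 and 0 (edgeR alone was run, with 2251 and 2318 genes below an unadjusted p of 0.05). Leaving out each other replicate gave 143 to 541 higher and 78 to 388 lower genes. Adding the RNA purity ratios to the model, or a score of pan-leukocyte genes, left 0 calls in edgeR (2456 and 1892 genes at an unadjusted p under 0.05). Within the first flow cell 81 genes were higher and 35 lower, and within the second 0 passed (1168 at an unadjusted p under 0.05). The median difference of the 344 genes was 0.37 without replicate 6, 0.35 without replicate 9 and 0.36 with the purity ratios, against 0.38 with all libraries and no such term, and the smallest adjusted p in these 3 refits was 0.0489, 0.0536 and 0.0835. The genes were chosen on the same libraries, so these medians describe the size of the folds and test nothing. The balance moved with scaling and batch: higher genes were 57.4% of the calls, 46.7% without TMM scaling (267 higher, 305 lower) and 83.5% without the flow cell term (379 higher, 75 lower).

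Genes induced by interferon gamma were higher in Cxcl9-high tumours almost throughout the list. The list for type II interferon had 28 tested members, of which 24 were higher, 0 were lower and all 28 had a positive difference, with a median log2 value of 0.61 against -0.0025 over all genes tested. In 19 of them the 2 sets did not overlap. Over all genes tested, 2.23% were called higher and 1.2% lay wholly above, shares to set beside the counts of each list below. The summed level of the list was 4050 to 5750 CPM in Cxcl9-low and 6450 to 8550 CPM in Cxcl9-high tumours. The list members Socs1 and Iigp1 are not analysed here.

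Among the transcription factors of the pathway, Irf1 (ENSMUSG00000018899, chromosome 11, 53770014 to 53778374), which the cytokine induces, stood at 198 to 243 CPM (median 225, n = 6) in the low set and 260 to 348 CPM (median 300, n = 6) in the high set. Every Cxcl9-high tumour was above every Cxcl9-low one, with a difference of 0.41 ± 0.08 (adjusted p = 0.0195). Irf8, a factor of myeloid and dendritic cells, was higher by 0.47 ± 0.09 and Batf2, an interferon-induced leucine zipper factor, by 0.82 ± 0.12 (adjusted p = 0.0148), and Batf2 lay at 25.7 to 37.3 CPM in the low set and 44.6 to 64.4 CPM in the high set. Irf9, at 0.17, did not pass (adjusted p = 0.163).

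Interferon-induced GTPases are the pathway's effectors against pathogens. Igtp, an immunity-related GTPase that acts at pathogen vacuoles (ENSMUSG00000078853, chromosome 11, 58199556 to 58207591), lay at 252 to 394 CPM (median 324, n = 6) in the low set and 443 to 637 CPM (median 522, n = 6) in the high set. The lowest Cxcl9-high tumour was thus above the highest Cxcl9-low one, and the difference was 0.66 ± 0.12 (adjusted p = 0.0229). It was 0.54 within the first flow cell and 0.77 within the second. Gbp2 (ENSMUSG00000028270, chromosome 3, 142620602 to 142638008), a guanylate-binding protein, spanned 241 to 382 CPM (median 286, n = 6) and then 373 to 587 CPM (median 481, n = 6), and its sets overlapped because replicate 10 of the low set, at 382 CPM, exceeded replicate 7 of the high set, at 373 CPM. The log2 difference of Gbp2 was 0.64 ± 0.12 (adjusted p = 0.0237). Gbp5 was higher by 0.68 ± 0.13, Gbp4 by 0.85 ± 0.14 and Gbp6 by 0.88 ± 0.14, the last at 201 ± 34.7 against 105 ± 20 CPM (SD, n = 6 each). Tgtp1 and Tgtp2, near-identical GTPases whose reads the counting could have divided, both differed by 0.61. Gbp6, Gbp8 and Gbp10 are likewise similar enough to each other for their separate values to be uncertain.

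**Figure D2:**
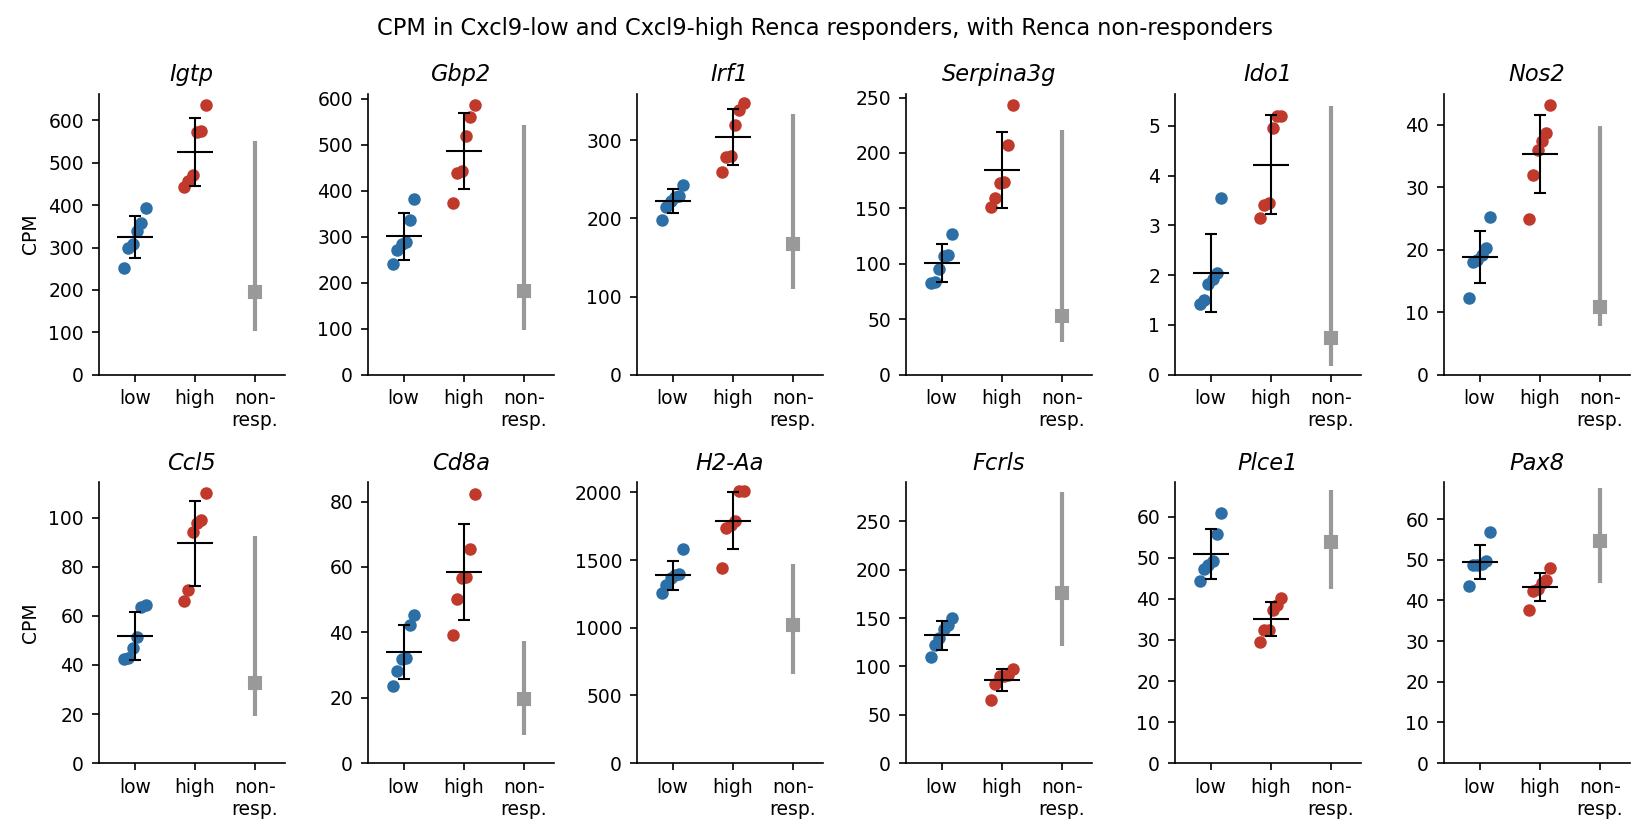
CPM of 12 genes in each Renca responder library, Cxcl9-low in blue and Cxcl9-high in red, with black lines for the mean and SD of 6 libraries. Grey squares and bars give the median and the range of the 12 Renca non-responders, and each y axis starts at 0. Igtp, Irf1, Serpina3g and Ccl5 have no overlap between the sets, Fcrls and Plce1 are lower in Cxcl9-high tumours, and Pax8 overlaps.

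Several members of the list are enzymes and inhibitors. Serpina3g, an intracellular serine and cysteine protease inhibitor (ENSMUSG00000041481, chromosome 12, 104236245 to 104241939), was read at 82.4 to 127 CPM (median 101, n = 6) in Cxcl9-low and 151 to 243 CPM (median 173, n = 6) in Cxcl9-high tumours, with no overlap. It was higher by 0.91 ± 0.14 (adjusted p = 0.0152), and its neighbour Serpina3f by 0.86 ± 0.15; the 2 are related in sequence and could have shared reads. Ido1, which degrades tryptophan (ENSMUSG00000031551, chromosome 8, 24584136 to 24597009), was a low-count gene at 1.43 to 3.56 CPM (median 1.88, n = 6) and 3.14 to 5.2 CPM (median 4.2, n = 6). Its sets overlapped only through replicate 3, a Cxcl9-low tumour at 3.56 CPM, and the difference was 1.15 ± 0.23 (adjusted p = 0.0248). Nos2, the inducible nitric oxide synthase, was at 35.3 ± 6.29 against 18.9 ± 4.13 CPM (SD), a difference of 0.94 ± 0.17 (adjusted p = 0.0195). Ubd, an interferon-induced ubiquitin-like protein, was at 21.1 ± 4.25 against 11.1 ± 2.87 CPM, with no overlap and a difference of 0.94 ± 0.20. Cd274, which encodes PD-L1, the target of one of the later antibodies, had a difference of 0.33 ± 0.09 that did not pass (adjusted p = 0.0645).

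Because these genes moved together, their promoters were searched for TTCNNNGAA, the core of the gamma-activated site, a promoter element of interferon gamma responses. It reads the same on both strands and was searched over the bases upstream of the start site. Over all RefSeq promoters (GRCm38.p6) 7.02% of 32851 held it. Only 72.7% of the 344 higher genes and 75.7% of the 255 lower genes had an entry, below the 80% needed, so a comparison of the gene sets was void. The windows below are those of the named higher genes in which a match was found, 5′ to 3′ in the direction of the gene, with capitals on the matches. Some named higher genes had no promoter entry and were not searched, among them Gbp6, Ido1, Nos2, Tap2, Batf2, Ccl4 and Ccl5. Foxp3 and Pax2, named genes that did not pass, held a match too, so a match is not confined to the higher genes. A match describes these letters and does not show binding.
Irf1, chr11:53769914-53769942, plus strand: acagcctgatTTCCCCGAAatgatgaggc
Igtp, chr11:58199501-58199529, plus strand: aactagccatTTCTAGGAActgaaactga
Gbp5, chr3:142496684-142496900, plus strand: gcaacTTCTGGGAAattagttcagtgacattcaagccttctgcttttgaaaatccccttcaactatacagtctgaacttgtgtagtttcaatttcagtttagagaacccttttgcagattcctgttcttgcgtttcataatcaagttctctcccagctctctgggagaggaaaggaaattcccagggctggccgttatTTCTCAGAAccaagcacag
Serpina3g, chr12:104236104-104236132, plus strand: taagttatagTTCCCAGAAatcacccggt
Serpina3f, chr12:104214413-104214441, plus strand: tcagttctatTTCCTAGAAatcacccatt
Fpr2, chr17:17887737-17887765, plus strand: tttgcctggcTTCTGGGAAtcttaggaaa

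Antiviral genes of the type I interferon list had positive differences with few calls. Of 29 tested members, 5 were higher, namely Rsad2, Irf7, Zbp1, Oasl2 and Xaf1, 0 were lower and 29 had a positive difference, with a median of 0.39. Rsad2, an antiviral enzyme also known as viperin, was higher by 0.63 ± 0.12, at 99.6 ± 15.3 against 61.8 ± 11.1 CPM (SD), and did not overlap. Irf7, the factor that amplifies type I interferon, was higher by 0.69 ± 0.16 (adjusted p = 0.0356) with overlapping sets. Ifit1, Ifit3 and Mx1, antiviral effectors, had differences of 0.42, 0.58 and 0.52 and did not pass. In the list as a whole the sets did not overlap for 1 gene.

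On the MHC class I list 12 of 22 tested genes were higher and 0 lower, with a median of 0.29, and the summed level was 15800 to 18400 CPM in Cxcl9-low and 18600 to 21300 CPM in Cxcl9-high tumours. Tap1, a subunit of the peptide transporter (ENSMUSG00000037321, chromosome 17, 34187553 to 34197225), lay at 357 to 442 CPM (median 400, n = 6) and 453 to 616 CPM (median 533, n = 6), without overlap, a difference of 0.43 ± 0.08 (adjusted p = 0.0233). Its partner Tap2 was at 296 ± 25.2 against 228 ± 13.4 CPM (SD), higher by 0.39 ± 0.07. Tapbpl, a peptide editor, was higher by 0.38 ± 0.06 and H2-Q7, a non-classical class I gene similar to its neighbours, by 0.31 ± 0.05, both without overlap. The immunoproteasome subunits Psmb9 and Psmb10 were higher by 0.37 ± 0.08 and 0.45 ± 0.09, while Psmb8 at 0.29 did not pass (adjusted p = 0.0526). B2m, the light chain of class I, differed by 0.14 ± 0.07 and the classical heavy chains H2-K1 and H2-D1 by 0.26 and 0.21, none of which passed (adjusted p = 0.284, 0.0507 and 0.0624). Nlrc5, the class I transactivator, differed by 0.33 ± 0.10 and did not pass (adjusted p = 0.0786).

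On the MHC class II list 6 of 9 tested genes were higher, with a median of 0.34, and Cd74, Ciita and Ifi30 are not analysed here. H2-Aa, a class II chain (ENSMUSG00000036594, chromosome 17, 34282744 to 34287823), was at 1260 to 1580 CPM (median 1380, n = 6) in Cxcl9-low and 1440 to 2010 CPM (median 1770, n = 6) in Cxcl9-high tumours. The sets overlapped through replicate 11, at 1440 CPM the lowest Cxcl9-high tumour, although that replicate was second in Cxcl9 itself and had the highest Igtp value of all, 637 CPM. The difference was 0.37 ± 0.09 (adjusted p = 0.0373). H2-Ab1 was higher by 0.43 ± 0.09, with the same replicate lowest at 1130 CPM. H2-DMa, which loads peptides on class II, was higher by 0.37 ± 0.06 and was the 1 gene of the list without overlap. H2-DMb1 was higher by 0.34 ± 0.08.

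Of the CXCR3 axis, 2 of 6 genes passed, with a median over the 6 of 0.62. Cxcl10 (ENSMUSG00000034855, chromosome 5, 92346638 to 92348889), the sister chemokine of Cxcl9, lay at 29.1 to 57 CPM (median 45.4, n = 6) in the low set and 55.9 to 99.4 CPM (median 79, n = 6) in the high set. The sets met at replicate 4, 57 CPM in the low set, and replicate 5, 55.9 CPM in the high set, and the difference was 0.80 ± 0.18 (adjusted p = 0.0335). Cxcl11, the remaining ligand, had a larger point estimate of 0.89 ± 0.24 at 17.9 ± 6.54 against 9.46 ± 2.17 CPM (SD) that did not pass (adjusted p = 0.0632), and the annotation lists it as a polymorphic pseudogene. Cxcr3, their receptor, was at 14.7 to 20.9 CPM (median 18.8, n = 6) and 21.8 to 32.1 CPM (median 23.5, n = 6), and although no library of one set reached the other, its difference of 0.44 ± 0.11 just missed (adjusted p = 0.0512). Ccl5, a T cell and macrophage chemokine (ENSMUSG00000035042, chromosome 11, 83525778 to 83530518), did not overlap either, at 42.6 to 64.3 and 65.9 to 110 CPM, and was higher by 0.82 ± 0.15 (adjusted p = 0.0224). Among other chemokines, 2 of 20 passed. Ccl4 was higher by 0.89 ± 0.17 and Cxcl16 by 0.32 ± 0.08.

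The CD3 chains Cd3e and Cd3d and the adaptor Lat were higher, and most other T cell genes had positive differences that did not pass. Of 25 tested T cell genes 24 had a positive difference and those 3 passed, with a median of 0.44 over the list. Cd3e, a chain of the T cell receptor complex, was at 16.3 to 23.3 CPM (median 19.5, n = 6) in Cxcl9-low and 22.2 to 37.1 CPM (median 29.6, n = 6) in Cxcl9-high tumours, with overlap and a difference of 0.56 ± 0.13 (adjusted p = 0.0412). Cd8a (ENSMUSG00000053977, chromosome 6, 71373427 to 71379173) was at 23.7 to 45.4 CPM (median 32.1, n = 6) and 39.1 to 82.3 CPM (median 56.7, n = 6), and its larger difference of 0.75 ± 0.20 did not pass (adjusted p = 0.054). Cd4 at 0.25 ± 0.16 and the regulatory T cell factor Foxp3 at 0.33 ± 0.26 did not pass (adjusted p = 0.433 and 0.54). Of 13 regulatory T cell genes 0 passed, where 3.88% of all genes tested did. Foxp3 in the high set ran from 12.4 CPM in replicate 7 to 43.8 CPM in replicate 8, a spread that took in all 6 Cxcl9-low tumours. With the pan-leukocyte score in the model Cd4 and Foxp3 had differences of -0.11 and -0.36, the opposite sign.

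On the cytotoxic list 4 of 12 tested genes were higher, with a median of 0.58, and Ifng, Gzma, Gzmb and Prf1 are not analysed here. Nkg7, a granule membrane protein, was at 35.5 ± 4.82 against 22.1 ± 3.56 CPM (SD), without overlap, higher by 0.66 ± 0.11 (adjusted p = 0.0164). Eomes and Tbx21, the T-box factors of cytotoxic lymphocytes, were higher by 0.56 ± 0.13 and 0.60 ± 0.15. Eomes was even across the high set, at 10.8 to 12.4 CPM against 4.97 to 9.6 CPM. Of 14 NK cell genes 3 were higher, the lectin receptors Klrc1, Klrc2 and Klrb1b, and Klrc1 and Klrc2 are similar enough to share reads. Ncr1, the NK receptor NKp46, was at 14.8 ± 2.22 against 11.5 ± 3.41 CPM (SD), a difference of 0.33 ± 0.19 that did not pass (adjusted p = 0.367). B cell and plasma cell genes passed in 0 of 12, where 3.88% of all genes tested passed.

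Among checkpoint genes PD-L2, LAG3 and TIM-3 transcripts were higher. Of 18 tested, 3 were higher and 0 lower, with a median of 0.36, and Tigit and Cd80 are not analysed here. Pdcd1lg2, which encodes PD-L2 (ENSMUSG00000016498, chromosome 19, 29410919 to 29471161), was at 5.41 to 9.45 CPM (median 7.53, n = 6) in Cxcl9-low and 10.1 to 14.5 CPM (median 12.1, n = 6) in Cxcl9-high tumours, without overlap, and higher by 0.73 ± 0.14 (adjusted p = 0.0229). Lag3 was higher by 0.66 ± 0.15 and Havcr2, which encodes TIM-3, by 0.51 ± 0.12, both with overlapping sets. Pdcd1, which encodes PD-1, had the same point estimate as PD-L2, 0.73 ± 0.20, but overlapped, because replicate 10 of the low set was at 28.3 CPM, and it did not pass (adjusted p = 0.0655). Ctla4, the target of the other antibody, was at 13.1 to 40.4 CPM (median 19.8, n = 6) and 14.4 to 93.8 CPM (median 26.2, n = 6). Replicate 7 was lowest and replicate 8 highest in the high set, which took in most of the low set, and the difference of 0.48 ± 0.37 did not pass (adjusted p = 0.52).

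Of 21 macrophage genes 5 were higher (C1qa, C1qb, C1qc, Fcgr1 and Fcgr4) and 0 lower, while the list's median was 0.075 and its summed level overlapped, at 9910 to 11700 CPM in Cxcl9-low and 10400 to 11400 CPM in Cxcl9-high tumours. Csf1r, the receptor that macrophages need, was at 801 ± 62.5 against 760 ± 61.3 CPM (SD), a difference of 0.05 ± 0.05 that did not pass (adjusted p = 0.628). Fcgr4, an activating Fc receptor, was higher by 0.75 ± 0.14, at 48.6 to 81 and 92.2 to 132 CPM, without overlap, and Fcgr1, another, by 0.34 ± 0.07. Fcgr3, a further Fc receptor, had a difference of 0.08 ± 0.08 that did not pass (adjusted p = 0.634). The C1q chains C1qa, C1qb and C1qc were higher by 0.28, 0.32 and 0.33. Mrc1, the mannose receptor, had a difference of -0.38 ± 0.10 and Cd163 of -0.52 ± 0.26, neither of which passed (adjusted p = 0.0512 and 0.289).

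Of the other fixed myeloid lists, 2 of 13 neutrophil genes (median 0.15) and 2 of 13 monocyte genes (median 0.44) were higher and 0 lower. Timd4, Fpr2 and Abtb2, below, are on none of the lists and are named for the size of their change alone. Acod1, which makes itaconate in activated macrophages (ENSMUSG00000022126, chromosome 14, 103046977 to 103056573), was at 5.94 to 11.3 CPM (median 6.64, n = 6) in Cxcl9-low and 10.4 to 23 CPM (median 15.6, n = 6) in Cxcl9-high tumours, higher by 1.07 ± 0.18 (adjusted p = 0.0164). The overlap came from replicate 10, the Cxcl9-low tumour next to the split, at 11.3 CPM. Timd4, the phosphatidylserine receptor TIM-4, was at 8.16 ± 1.85 against 4.09 ± 1.14 CPM (SD), higher by 0.95 ± 0.20. Fpr2, a formyl peptide receptor of phagocytes, did not overlap, at 25.4 ± 4.4 against 13.8 ± 2.54 CPM (SD), and was higher by 0.86 ± 0.14 (adjusted p = 0.0164). Csf3r, the G-CSF receptor, was higher by 0.40 ± 0.10, and it and Acod1 were the neutrophil genes that passed. S100a8, S100a9 and Cxcr2 of the same list had differences of 0.37, 0.03 and -0.32 and did not pass. Il27, a subunit of the cytokine IL-27, was at 4.24 ± 0.816 against 2.47 ± 0.393 CPM (SD), without overlap, higher by 0.79 ± 0.16, and Il18bp, which binds and blocks IL-18, by 0.64 ± 0.16. Abtb2, a BTB-domain protein (ENSMUSG00000032724, chromosome 2, 103566310 to 103718423), had the largest difference of the named genes that passed, 1.3 ± 0.30 (adjusted p = 0.0355), with overlapping sets at 2.68 to 8.3 and 5.58 to 15.9 CPM.

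Dendritic cell lists held few calls. Among 12 genes of type 1 conventional dendritic cells, which cross-present antigen, Batf3 and Irf8 were higher, by 0.39 ± 0.09 and 0.47 ± 0.09, and Xcr1, their chemokine receptor, had a difference of 0.46 ± 0.20 that did not pass (adjusted p = 0.235). Other conventional dendritic cells passed in 0 of 13 genes and plasmacytoid dendritic cells in 0 of 9, where 3.88% of all genes tested passed. Of 13 monocyte genes, Ly6a and Ly6c1 were higher, by 0.70 ± 0.15 and 0.60 ± 0.15. Kit, the 1 of 6 mast cell and eosinophil genes to pass, is also expressed outside those cells and was higher by 0.41 ± 0.10.

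Of 15 pan-leukocyte genes 4 were higher, 0 were lower and all 15 had a positive difference, with a median of 0.26. Those that passed were Itgb2, Cd52, Hcls1 and Vav1. The summed level of the list overlapped, at 2280 to 2890 CPM in Cxcl9-low and 2700 to 3770 CPM in Cxcl9-high tumours. Ptprc, which encodes the common leukocyte antigen CD45, was at 433 ± 87.4 against 346 ± 48.3 CPM (SD), a difference of 0.24 ± 0.10 that did not pass (adjusted p = 0.216). With the leukocyte score in the model the median of the 344 higher genes was 0.26, against 0.38 without it, and that of the 255 lower genes -0.24, against -0.25, with none past the threshold. The genes were chosen on these libraries, and Itgb2, Cd52, Hcls1 and Vav1 are in both the score and the 344. These medians therefore test nothing. Within that fit Igtp differed by 0.55 and Tap1 by 0.32, against 0.66 and 0.43 without the score. The sign reversed for 5 named genes, none of which had passed. The part of leukocyte content in the result was not tested.

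No gene of the stromal and neighbouring-tissue lists passed, where 3.88% of all genes tested did. At that share a list of this size can hold 0 calls without differing from other genes. Fibroblast and matrix genes passed in 0 of 21 tested, with a median of 0.024, blood endothelium in 0 of 18, the TGF-beta response in 0 of 12, hypoxia and glycolysis in 0 of 19 and oxidative phosphorylation in 0 of 24. Col1a1, a fibrillar collagen, was at 5490 ± 1550 against 6550 ± 2880 CPM (SD), a difference of 0.12 ± 0.18 that turned to -0.25 without the flow cell term. Proliferation genes had a median of -0.07 with 0 of 21 passing, and Mki67 a difference of -0.21 ± 0.10 (adjusted p = 0.28). Skeletal muscle genes passed in 0 of 13 although all 13 were positive with a median of 0.58. Their summed level ran from 818 to 2340 CPM in the low set and from 43.6 to 2970 CPM in the high set, with replicate 11 lowest and replicate 7 highest of all, so muscle RNA varied by far more within the high set than between the sets. The part of adjoining muscle in the result was not tested.

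**Figure D3:**
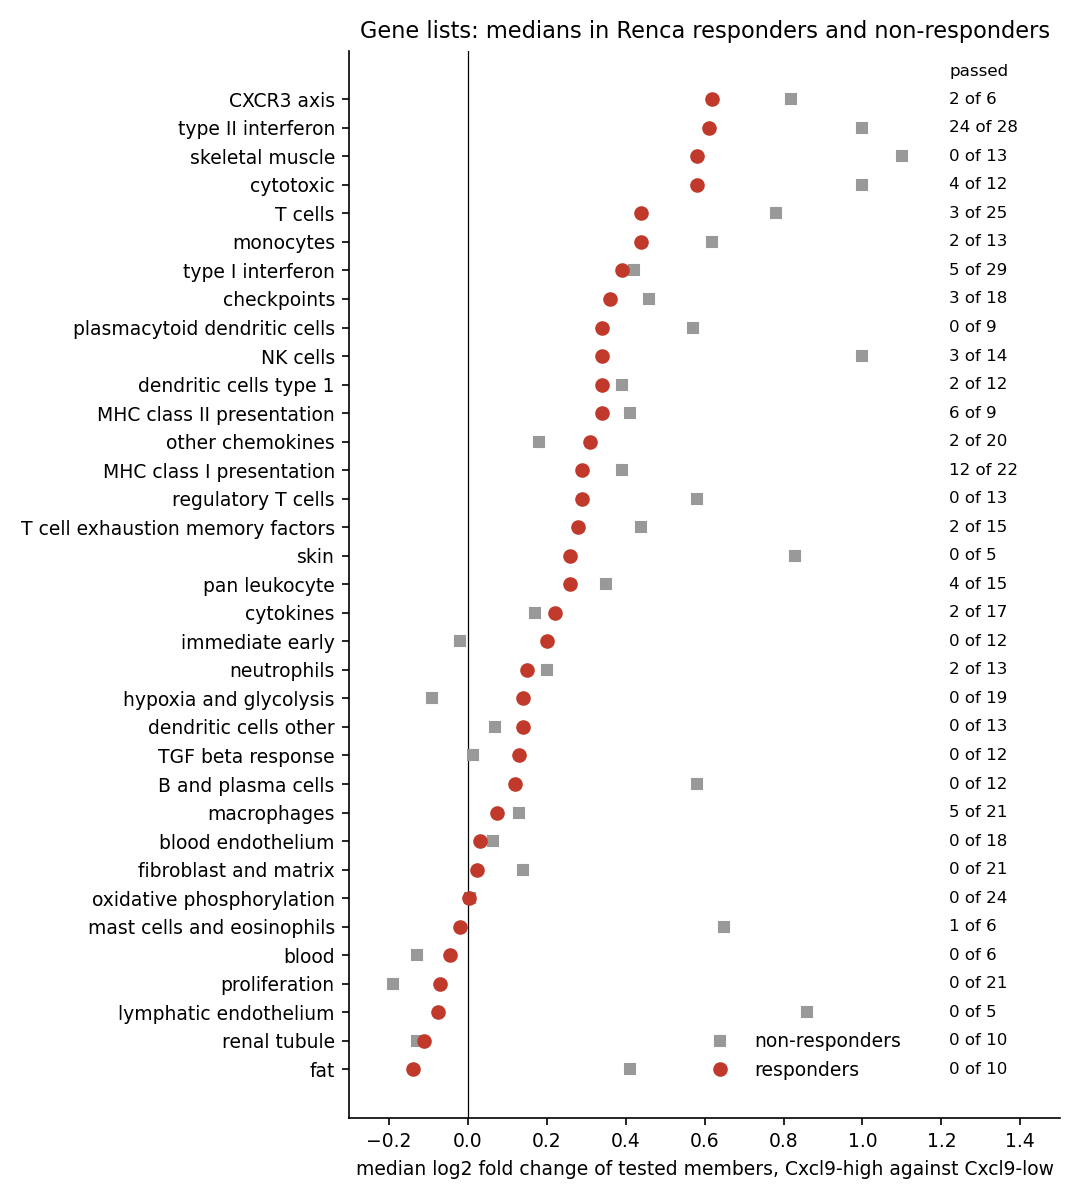
Median log2 fold change of Cxcl9-high against Cxcl9-low tumours over the tested members of each gene list with 5 or more of them, in Renca responders (red circles) and Renca non-responders (grey squares). The numbers at the right are the members that passed as higher in responders out of those tested, from 24 of 28 for type II interferon to 0 for stromal and tissue lists.

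None of the 255 lower genes, 1.65% of all genes tested, belonged to a list, and the lists are mostly of immune and tissue genes. Fcrls, an Fc receptor-like protein of macrophages and microglia (ENSMUSG00000015852, chromosome 3, 87250758 to 87263738), was at 110 to 150 CPM (median 134, n = 6) in Cxcl9-low and 65.5 to 97.3 CPM (median 90.1, n = 6) in Cxcl9-high tumours. Every Cxcl9-high library lay below every Cxcl9-low one, a difference of -0.60 ± 0.11 (adjusted p = 0.0178), and none of the 6 Cxcl9-low tumours exceeded the non-responder median of 176 CPM. Cd209b, a C-type lectin of macrophages, was at 1.55 ± 0.551 against 3.21 ± 0.713 CPM (SD), a difference of -0.99 ± 0.24 (adjusted p = 0.0412). Plce1, a phospholipase C (ENSMUSG00000024998, chromosome 19, 38481109 to 38785030), was at 44.3 to 60.8 CPM (median 48.6, n = 6) and 29.6 to 40.2 CPM (median 34.9, n = 6), without overlap, with a difference of -0.58 ± 0.08 and the smallest adjusted p of the named falls, 0.0105. Exph5, an effector of Rab27 vesicle traffic, differed by -0.96 ± 0.17, Sycp1, a synaptonemal complex protein, by -0.75 ± 0.14, and Hecw2, a ubiquitin ligase, by -0.68 ± 0.13. Slc35f3, Nav3, Uprt and Hoxd11, the last a homeobox gene of kidney and limb development, differed by -0.66, -0.62, -0.60 and -0.55.

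The lower genes had long transcripts. The longest annotated transcript of a gene had a median of 6243 bases among the lower genes, 2811 among the higher genes and 2898 among all genes tested, and the median GC content was 44.3%, 52.9% and 49.6%. Of the 255 lower genes, 168 were in the longest of 5 equal bins of tested genes and 7 in the shortest. The median log2 difference over all genes, called or not, went from 0.023 in the shortest bin to -0.055 in the longest. In non-responders it went from 0.016 to -0.015. Length therefore moved with the lower calls, and its part in them was not tested.

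**Figure D4:**
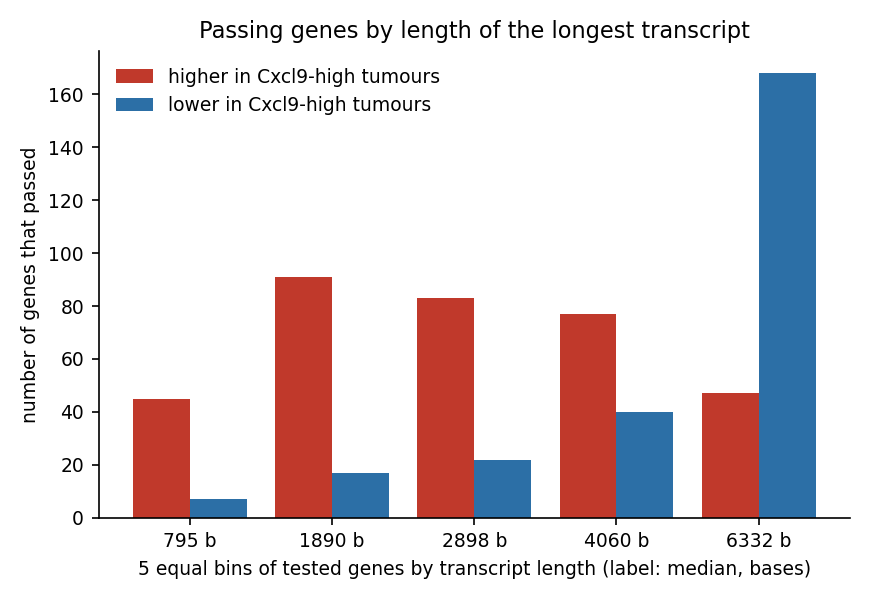
Number of genes that passed as higher (red) or lower (blue) in Cxcl9-high Renca responders, in 5 equal bins of tested genes by the length of the longest annotated transcript. Lower genes number 7 in the shortest bin and 168 in the longest, while higher genes number 45 and 47.

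The same genes were then read in the 12 Renca non-responders, which share no library with the responders but do share lanes. A responder and the non-responder of its number were run in one lane, and 10 of the 12 numbers fell on the same side of both splits (5 of 6 high and 5 of 6 low). Numbers 9, 10, 11 and 12 of both groups were all in lane 3 of the second flow cell. In both groups 9 and 10 were low and 11 and 12 high, so that lane held both sides of each split. For numbers that had a lane to themselves, what the lane and what Cxcl9 contributed to the likeness of the splits cannot be told apart. The part of lanes in the likeness was not tested, and the shares below are a description. Split by Cxcl9 in the same way, the non-responders gave 0 calls among 15439 genes in edgeR, with 1655 higher (10.7%) and 1427 lower (9.24%) at an unadjusted p under 0.05, whereas DESeq2 called 586 higher and 264 lower. Of the 344 genes higher in Cxcl9-high responders, 341 were tested there and 337 of these (98.8%) were higher in Cxcl9-high non-responders, against 48.4% of all genes. At an unadjusted p under 0.05, 253 of them (74.2%) were higher, against 10.8% of all genes tested in both. Their median difference was 0.339 in non-responders and 0.379 in responders. Of the 255 lower genes 241 (94.5%) were lower, against 51.6% of all, and 128 (50.2%) at an unadjusted p under 0.05, against 9.31%. Their median was -0.125 in non-responders and -0.249 in responders. Both gene sets were chosen by their values in responders, which favours larger differences there. The medians of the 2 groups are therefore not a like comparison. Without non-responder replicate 3, whose Cxcl9 was far above the rest, 324 of 341 (95%) were higher with a median of 0.24, and 233 of 255 (91.4%) were lower with a median of -0.0961.

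**Figure D5:**
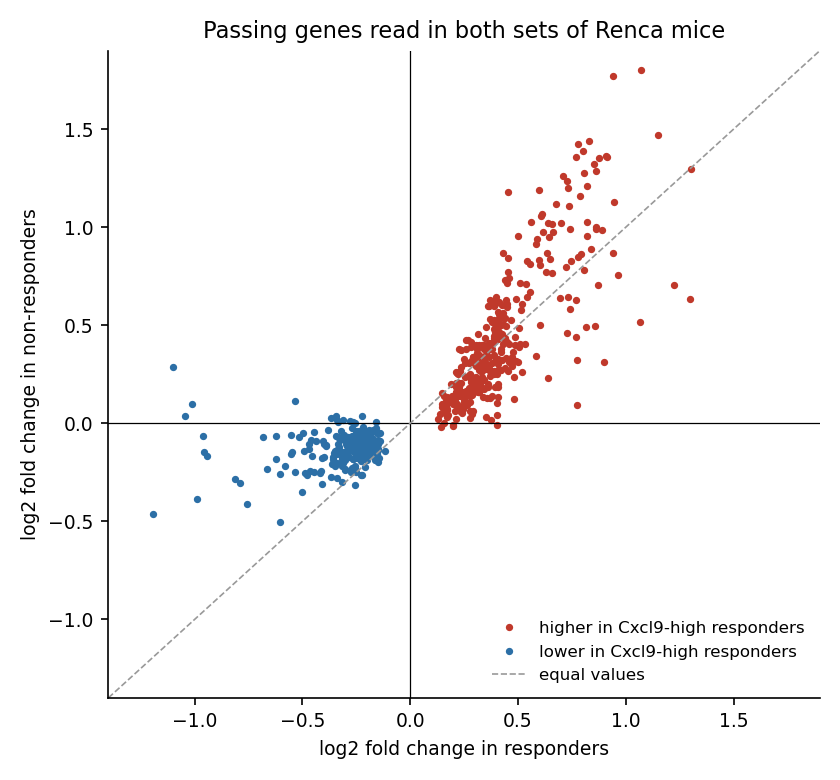
Log2 fold change of Cxcl9-high against Cxcl9-low tumours in Renca responders (x axis) and Renca non-responders (y axis) for the genes that passed in responders, red where higher and blue where lower. The dashed line marks equal values. Most red points lie above 0 on the y axis (337 of 341), and most blue points lie below it (241 of 255). The genes were chosen on the responders, which favours larger values on the x axis.

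The non-responder split spanned a wider range of Cxcl9 than the responder split, 49.2 to 655.5 CPM against 184 to 654.2 CPM, with replicate 3 alone at 655.5 CPM and the next library at 199.8 CPM. The type II interferon list had a median of 1 in non-responders and 0.61 in responders, T cell genes 0.78 and 0.44, cytotoxic genes 1 and 0.58, and NK cell genes 1 and 0.34. Without replicate 3 the non-responder medians of these lists were 0.52, 0.58, 0.69 and 0.87, so that the type II interferon median was then below that of responders. In the fit over all 24 libraries the median difference of effects, responder minus non-responder, was -0.19 for type II interferon, -0.21 for T cells, -0.24 for cytotoxic genes and -0.45 for NK cells. Without replicate 3 these were 0.08, -0.068, -0.088 and -0.29, and with Cxcl9 as a continuous term 0.073, 0.028, 0.0042 and -0.086. Igtp differed by 1.02 in non-responders (unadjusted p = 0.00268), Serpina3g by 1.36 (unadjusted p = 0.000416) and Ubd by 1.77 (unadjusted p = 0.00188), and without replicate 3 by 0.63, 0.97 and 1.15. Fcrls differed by -0.50 there (unadjusted p = 0.00596), while Exph5, Hecw2 and Nav3 were near 0, at -0.06, -0.07 and -0.06. None of these contrasts between responders and non-responders was established by the test of the difference. Of 16015 genes 0 passed it in edgeR and 1 in DESeq2, with 709 (4.43%) at an unadjusted p under 0.05 in edgeR. Hecw2 had a difference of effects of -0.63 (edgeR unadjusted p = 0.000568, adjusted p = 0.956). It was named for its fall in responders, as were Exph5 and Nav3, and that choice favours a difference of effects. The 3 genes of smallest p were Sgf29, at 0.32, the pseudogene Ftl2-ps and the antibody segment Igkv1-117, and none passed.

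Cxcl9-low responders lay above the middle of the non-responders for many of these genes. For Irf1, Igtp, Gbp2, Gbp5, Serpina3g, Tap1, H2-Aa, Ccl5, Cxcl10 and Cd8a, all 6 Cxcl9-low responders exceeded the non-responder median. The same held for B2m, Ptprc and Cd4, which did not pass, while for the passing genes Pdcd1lg2 and Havcr2 5 and 4 did so. How often this occurred over all genes tested was not counted. Igtp ran over 103 to 551 CPM (median 196, n = 12) in non-responders, so that the Cxcl9-low responders, at 252 to 394 CPM, lay inside that range and the top Cxcl9-high responders, to 637 CPM, above it. The summed type II interferon level was 2000 to 7940 CPM in non-responders with a median of 3160, and 4050 CPM in the lowest Cxcl9-low responder. Cd8a spanned 8.66 to 37.4 CPM (median 19.6, n = 12) in non-responders, and every Cxcl9-high responder was above all of them, at 39.1 CPM or more. Fcrls took the reverse order, at 121 to 280 CPM (median 176, n = 12) in non-responders.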

How the data were processed

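RNA was extracted from frozen whole tumours and made into Illumina libraries, per the labels' protocols. The deposited table gives unnormalised read counts of 39637 mouse genes, 8466 of them at 0 throughout, for all 48 libraries. HISAT2 (2.0.4), StringTie (1.3.0), bcl2fastq (2.18.0.12) and human builds appear in the submitters' processing notes, although the identifiers are mouse. Counting tool, annotation and strand setting were "not given in the sources used here", which leaves overlapping and near-identical genes uncertain. Coordinates and transcript lengths come from GENCODE M21 (GRCm38), which matched 15423 of the 15449 tested genes, and may not be of the authors' build.

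CPM is the count divided by the library total. Sets of 6 and 6 were tested in R 4.3.3 by edgeR 4.0.16 (TMM scaling, filterByExpr, quasi-likelihood F test, flow cell term, Benjamini-Hochberg adjustment at 0.05, Cxcl9 removed before adjustment). The standard error is the size of the log2 fold change divided by the square root of F. The difference between responders and non-responders was the interaction over 24 Renca libraries. Library measures had two-sided exact permutation tests over 924 assignments, for which 0.00216 is the smallest possible p. Depth sets counting error only, and p-values measure the spread between these mice. The script was tested on simulated data.

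The members, gene lists and tests were chosen with earlier results of these data known. Named genes were the 12 largest rises and 10 largest falls that passed at a mean log2 CPM of 1 or more, without clone-based, Rik or receptor-segment symbols, the 3 members of smallest p in the type II interferon, class I and class II lists, a panel of immune and kidney genes, and the 3 genes of smallest p for the difference. A few genes that these criteria chose go unreported in the text. Other list members were named after their values were seen. A responder and the non-responder of its number were in one lane for 12 of 12 numbers, per the labels. Numbers 9 to 12 were all in the same lane, so there the number marks no separate lane. Deviations of same-numbered libraries correlated from -0.136 to 0.251. Alternatives were DESeq2 1.42.0, no TMM, no filter, other covariates, single flow cells and left-out replicates.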

Additional observations from a re-analysis of the deposited data

Results flagged for a closer look

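Among 124 sets of 6 libraries examined, one for each named gene reported and set, 6 held a library far from the others on the log2 scale, which is about the 1 in 20 that chance gives. They are listed as values and describe no library. Replicate 10, the Cxcl9-low tumour nearest to the split, stood above the other Cxcl9-low tumours in 3 genes, with Acod1 at 11.3 CPM (next 7.16), Ccl4 at 7.2 CPM (next 4.74) and Havcr2 at 31.8 CPM (next 24.1). Replicate 6 of the Cxcl9-high tumours was the low library for Sycp1 at 1.45 CPM (next 1.93) and the high one for the pseudogene Ftl2-ps at 324 CPM (next 9.7). The log2 difference of Ftl2-ps ranged from 0.47 to 3.66 when each replicate was left out in turn. Replicate 9 of the Cxcl9-low tumours was the high library for Hoxd11 at 7.3 CPM (next 5.4).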

How the results depend on the processing

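In responders the counts of higher and lower genes were 693 and 580 with DESeq2, 336 and 160 without the filter on low counts, 379 and 75 without the flow cell term, 561 and 208 with Cxcl9 as a continuous term, and 584 and 343 without the 2 libraries at the middle of the ranking. The first flow cell alone gave 81 and 35. The RNA purity ratios, the pan-leukocyte score and the second flow cell alone each gave 0 and 0 (edgeR alone was run, with 2456, 1892 and 1168 genes below an unadjusted p of 0.05), and the cause was not tested. Without each replicate the counts ran from 0 to 541 higher and from 0 to 388 lower. In non-responders, where edgeR called 0, DESeq2 called 586 and 264, omitting the filter 122 and 20, and omitting the flow cell term 85 and 28. Leaving out single non-responders gave 0 to 185 higher and 0 to 24 lower, with 91 and 14 without replicate 8 and 185 and 24 without replicate 9. For the difference of effects DESeq2 called 1 higher. With a replicate block the difference had 0 calls in edgeR, as without it (875 against 709 genes at an unadjusted p under 0.05). There was no call for the block to remove. No paired analysis was possible for the high against low comparison because the 2 sets share no replicate number.

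Sign changes among named genes concerned ones that did not pass. The purity ratios turned Ctla4 to -0.09. The leukocyte score turned Ctla4 to -0.52, Cd4 to -0.11, Foxp3 to -0.36, Csf1r to -0.02 and Ptprc to -0.03. In the first flow cell alone Col1a1 was -0.15, without the flow cell term it was -0.25, and in the second flow cell alone Pax2 was 0. Passing genes near the threshold, such as Hoxd11, Cd209b and Csf3r, lost the call in 8 or 9 of 12 refits that left out a replicate. Genes read at about 1 CPM are limited by depth.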

Other observations

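Families drawn up after the values were seen gave the following counts in Cxcl9-high against Cxcl9-low responders. Guanylate-binding proteins were higher in 10 of 11 members, with a median log2 difference of 0.73, and immunity-related GTPases in 8 of 9, with a median of 0.61. Of 14 tested Oas and Ifit genes 2 were higher, Oas1b and Oasl2, with a median of 0.37. Of 16 complement and complement-regulator genes 9 were higher, with a median of 0.28. Serping1, the C1 inhibitor, was higher by 0.43 ± 0.09 (SE, edgeR adjusted p = 0.0313), at 1130 ± 103 against 840 ± 99.5 CPM (SD, n = 6 each), without overlap. C3ar1, the receptor for C3a, was higher by 0.50 ± 0.11 and C4b by 0.39 ± 0.10. Immediate early genes stood at a median of 0.2 with 0 of 12 passing, and its summed level ran from 780 to 1970 CPM in Cxcl9-low and from 931 to 2250 CPM in Cxcl9-high tumours.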
